A study of Mus musculus with 6 samples.

Results

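The genes described here carry glucose into the cell, break it down to pyruvate and lactate, export the lactate, or regulate those steps. They were chosen by symbol, 33 genes in all, and every one of the 33 was present among the 23183 symbols of the count files. The RNA came from mouse Th9 cells, the CD4 T helper cells that make interleukin-9, and was sequenced in bulk. The SPC group held 3 libraries of cells given 30 µM sphingosylphosphorylcholine (SPC, d18:1), a signalling lysophospholipid, and the control group held 3 libraries of cells without it. In both groups wild-type C57BL/6N naive CD4+ T cells from spleen were activated for 3 days with plate-bound anti-CD3e and soluble anti-CD28, each at 1 µg/ml. The Th9 conditions were IL-4 at 10 ng/ml and TGF-β1 at 2 ng/ml, with IFN-γ blocked by an antibody at 10 µg/ml. The labels give neither the age nor the sex of the animals, nor say whether spleens were pooled. The libraries of each group are numbered 1 to 3, and the series text speaks of 3 independent experiments without tying numbers to experiments or animals, so the p-values measure the spread between these libraries.

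Activated T cells are known for turning much of their glucose into lactate even when oxygen is present, and glucose transporters, hexokinase and lactate dehydrogenase are raised during activation as part of that change. HIF-1α, the oxygen-labile transcription factor encoded by Hif1a, activates many genes of the pathway. Among them are those for pyruvate dehydrogenase kinases, which hold pyruvate back from oxidation in mitochondria. TXNIP opposes glucose uptake, and its gene is switched on by glucose-sensing factors.

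Total counts were 22715292 to 33049997 in SPC libraries and 22002050 to 30292992 in control libraries. The T cell genes Cd3e and Cd4 averaged 98.1 and 468 CPM (read counts scaled to library size) with SPC, against 104 and 449 CPM in control. Of the other T cell markers, Cd3d, Lck, Lat and Cd5 averaged higher with SPC, and Cd3g, Cd247, Cd28 and Zap70 lower. Among these were Cd5 at 269 against 210 CPM and Zap70 at 157 against 178 CPM. Il9, the defining cytokine gene, averaged 1138 CPM with SPC and 539 CPM in control. Of the other Th9 markers, Irf4, Batf and Stat6 averaged higher with SPC (1599, 95.9 and 264 against 1387, 88.9 and 260 CPM). Gata3 and Il4ra averaged lower (233 and 421 against 261 and 470 CPM). The 7 B cell markers summed to 5.21 to 6.41 CPM in SPC libraries and 4.55 to 6.46 CPM in control libraries, nearly all of it from Cd79b and Ebf1, with Ms4a1 at 0 counts in all 6 libraries. The 9 myeloid and dendritic cell markers summed to 0.851 to 1.11 CPM with SPC and 0.889 to 1.68 CPM in control. Their part in the results below was not tested. In bulk RNA, fewer cells of a type and less RNA per cell cannot be told apart.

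The 33 genes together took 2.11%, 2.07% and 2.48% of all counts in SPC libraries 1, 2 and 3, against 2.11%, 2.29% and 2.69% in control libraries 1, 2 and 3. In both groups the library numbered 3 was the highest. Of the 33 genes, 32 passed the filter on low counts. The exception was Hk3, a hexokinase gene of myeloid cells, with 11, 0 and 0 counts in SPC libraries and 4, 2 and 2 in control libraries. Per kilobase of the longest protein-coding transcript, the most abundant was Gapdh at 1936 CPM per kb with SPC and 2009 in control. Ldha (1500 and 1626), Pkm (1434 and 1542), Eno1 (1354 and 1417), Aldoa (1258 and 1381) and Pgk1 (1156 and 1202) followed on that scale. The low end of the tested genes was Pdk2 at 0.466 and 0.454 CPM per kb.

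The comparison asks how SPC changed this pathway in cells set to become Th9. In the fit on group alone none of the 32 tested genes differed between SPC and control (edgeR quasi-likelihood test, Benjamini-Hochberg adjusted p under 0.05 over all 12226 tested genes), where 0.483% of all tested genes were called (0.327% higher and 0.155% lower). At an unadjusted p under 0.05 there were 4 members, Slc2a6, Pgam1, Eno3 and Hif1a, or 12.5% of them beside 10.2% of all tested genes. On group alone limma-voom also called 0 members, beside 38 genes in all, and DESeq2 called 1, Slc2a6, beside 281 genes in all. Libraries of 1 number deviated together from their group means across genes (correlations 0.413, 0.208 and 0.508 for numbers 1, 2 and 3). With the number as a block 5 members were called, 15.6% beside 7.08% of all tested genes (at an unadjusted p under 0.05, 15 members, 46.9%, beside 21.4%). Of these, 4 fell with SPC (Slc2a3, Pfkp, Pdk1 and Hif1a, 12.5% of the members beside 3.07% of all tested genes) and 1 rose (Slc2a6, 3.12% beside 4.02%).

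Most members leaned slightly downward. The log2 fold change (SPC over control) was below 0 for 25 of the 32 tested genes, beside 49.5% of all tested genes, and its median was -0.11, beside 0.0019 over all tested genes. Leaving out control library 3 alone gave a median of 0.00, and leaving out SPC library 3 alone gave -0.18. Leaving out both libraries of number 1, 2 or 3 gave -0.11, -0.08 and -0.11. In all 3 same-numbered pairs SPC was lower for 15 members, beside 22% of all tested genes, and higher for 2, Slc2a1 and Slc2a6, beside 21.8%. Every SPC library lay below every control library for Pgam1 and Eno3 (7.8% of all tested genes) and above every control library for Slc2a6 (8.67%).

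**Figure D1:**
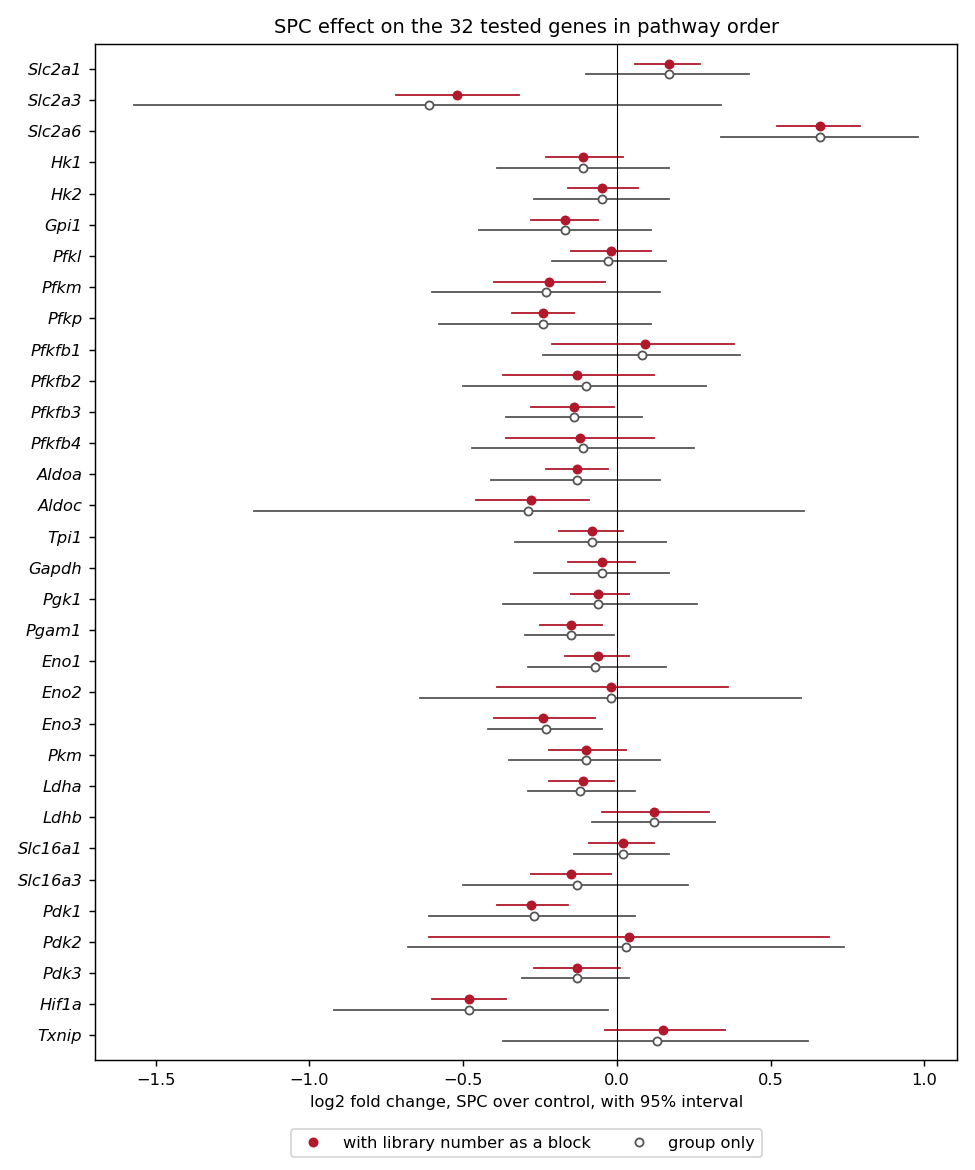
Log2 fold change of SPC over control for each of the 32 tested genes in pathway order, as points with 95% intervals, from the fit with library number as a block (filled, red) and on group alone (open, grey). Slc2a6 stands to the right at 0.66 in both fits, Slc2a3 and Hif1a stand to the left, and the blocked intervals are the narrower ones for the genes that vary between numbers.

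Of the 3 glucose transporter genes, Slc2a1 and Slc2a6 were higher with SPC in each pair and Slc2a3 was lower in each. Slc2a1, which encodes GLUT1, the main glucose carrier of activated T cells, had 270.1, 292.0 and 341.8 CPM in SPC libraries 1, 2 and 3, against 236.2, 265.6 and 303.9 CPM in control libraries 1, 2 and 3. SPC was the higher in each pair while the groups overlapped (log2 fold change 0.17 ± 0.12 SE, edgeR adjusted p = 0.713, or 0.17 ± 0.05 and 0.0666 in the blocked fit). Slc2a3, which encodes the high-affinity carrier GLUT3, had 82.99, 128.6 and 190.2 CPM with SPC, against 105.9, 162.7 and 346.7 CPM in control. Control library 3 stood far above the other 5, and SPC was the lower in each pair. On group alone it differed by -0.61 ± 0.42 on the log2 scale (adjusted p = 0.703), and by -0.00 without control library 3. With the block it fell by 0.52 ± 0.09 on that scale (adjusted p = 0.00607). Without both libraries numbered 3 the blocked value was -0.35 (adjusted p = 0.0175), and without both numbered 1 it was -0.61 and not called (adjusted p = 0.436).

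Slc2a6, which encodes GLUT6, a transporter family member found on lysosomes, was the member that rose. It had 90.76, 76.58 and 65.32 CPM in SPC libraries, against 55.31, 50.92 and 41.05 CPM in control libraries, without overlap. With the block it rose by 0.66 ± 0.06 on the log2 scale (adjusted p = 0.000148), a 1.58-fold rise, and on group alone the value was 0.66 ± 0.14 (adjusted p = 0.0933). DESeq2 on group alone gave an adjusted p of 0.000925. In both groups the library numbered 3 was the lowest, the reverse of most members. As a share of the 3 transporters per transcript length, Slc2a6 held 20.5% ± 5.36 with SPC and 14.2% ± 4.70 in control (SD, n = 3 each), and Slc2a3 held 14.7% ± 4.42 and 23.3% ± 9.50. Both differences had 1 direction in all 3 pairs, and the exact two-sided permutation test gave p = 0.2 for each, where 3 against 3 cannot go below 0.1. Adjusted over the 25 shares examined in 9 families, both were 0.625. These shares use the longest transcript, which for Slc2a3 and Slc2a6 is not of the protein-coding type. Per longest protein-coding transcript, Slc2a3 held 20.4% ± 5.93 with SPC and 31.1% ± 11.5 in control, and Slc2a6 22.8% ± 6.19 and 15.5% ± 5.58.

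The first enzymes showed small differences that did not pass the test in either fit. Hk1, a hexokinase gene expressed in most cells, had 282.9, 280.2 and 334.8 CPM with SPC, against 276.7, 312.7 and 382.1 CPM in control. Hk2, the inducible hexokinase that traps glucose as its phosphate, had 400.3, 394.6 and 453.4 CPM with SPC, against 383.7, 424.0 and 483.4 CPM in control. The groups overlapped for both, and the blocked 95% interval of the log2 fold change ran from -0.16 to 0.07 for Hk2 and from -0.23 to 0.02 for Hk1. Gpi1, which encodes the isomerase that follows, averaged 902 ± 111 CPM with SPC and 1018 ± 155 CPM in control, lower in each pair (blocked log2 fold change -0.17 ± 0.05, adjusted p = 0.0621). Hk1 and Hk2 shared the hexokinase pool almost evenly per transcript length, with Hk2 at 52.3%, 52.2% and 51.2% in SPC libraries and 51.8%, 51.3% and 49.5% in control libraries.

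Among phosphofructokinase genes, whose product commits sugar to glycolysis, the platelet-type Pfkp moved and the liver-type Pfkl did not pass. Pfkp had 449.0, 512.1 and 636.7 CPM in SPC libraries, against 526.3, 608.0 and 747.9 CPM in control libraries. The groups overlapped, but the 3 pairs differed by nearly the same amount, -0.23, -0.25 and -0.23 on the log2 scale. With the block it fell by 0.24 ± 0.05 on the log2 scale (adjusted p = 0.0104; 0.687 on group alone), and the call was lost without the libraries numbered 2 (adjusted p = 0.16) or 3 (0.0982). Pfkl had 388.9, 357.1 and 389.9 CPM with SPC, against 352.7, 384.3 and 420.8 CPM in control (blocked log2 fold change -0.02 ± 0.06, adjusted p = 0.854). Pfkm, the muscle-type gene, averaged 34.3 ± 4.78 CPM with SPC and 40.4 ± 9.22 CPM in control (-0.22 ± 0.08, adjusted p = 0.152 with the block). Per longest transcript, Pfkp held 35.0% ± 3.76 of the family in SPC libraries and 37.9% ± 1.72 in control libraries, and was lower in each pair (exact permutation p = 0.3, two-sided). Its longest annotated transcript is not of the protein-coding type, and per longest protein-coding transcript the shares were 52.9% ± 4.16 and 56.1% ± 1.79, so which of Pfkl and Pfkp leads depends on the length used.

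The 4 PFKFB genes encode the bifunctional enzymes that make or remove fructose 2,6-bisphosphate, the activator of phosphofructokinase. Pfkfb3, whose enzyme strongly favours synthesis, was the main one, with 88.64, 110.4 and 106.6 CPM with SPC, against 108.5, 121.0 and 106.9 CPM in control. The pair numbered 3 was level while SPC was lower in the others (blocked log2 fold change -0.14 ± 0.06, adjusted p = 0.219). Pfkfb2 averaged 18.2 ± 4.61 and 19.5 ± 1.13 CPM in SPC and control libraries, Pfkfb4 7.14 ± 1.19 and 7.71 ± 0.79 CPM, and Pfkfb1 5.06 ± 0.427 and 4.78 ± 0.195 CPM. None passed in either fit.

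**Figure D2:**
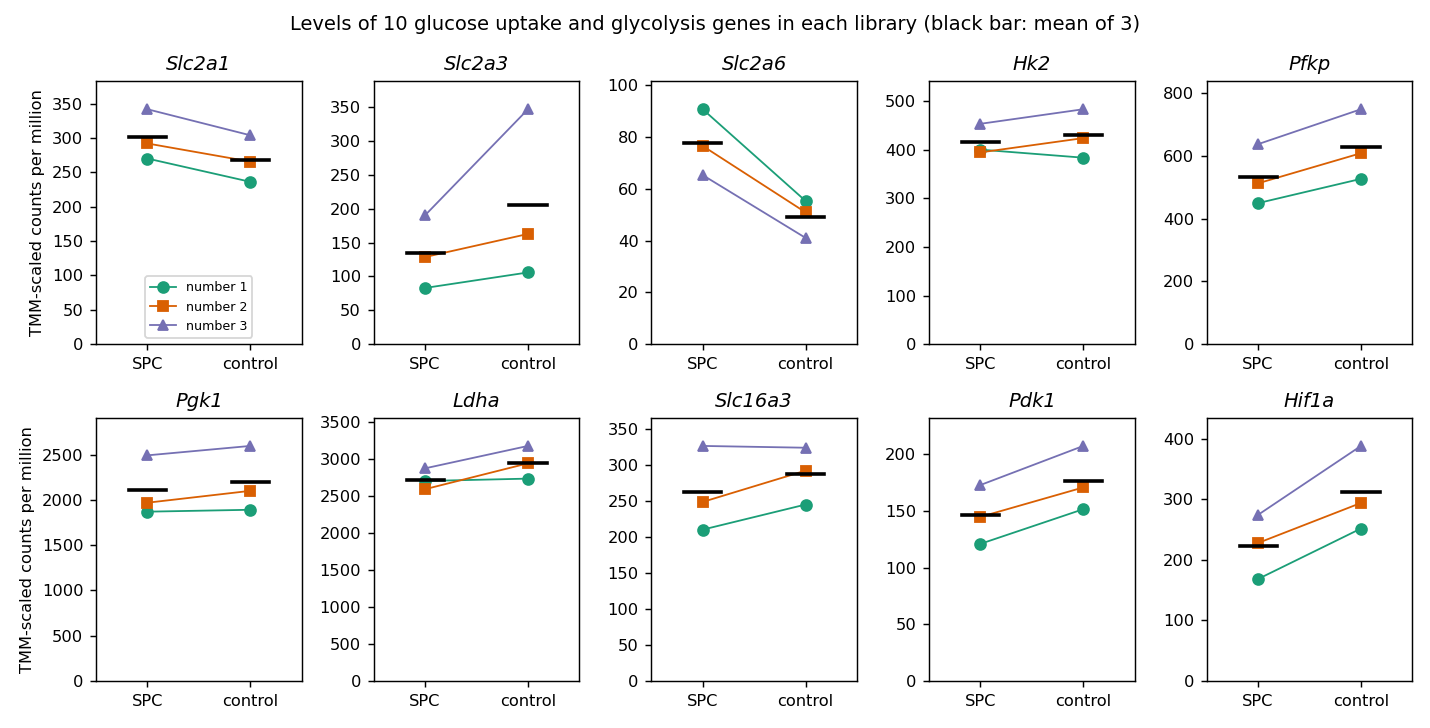
TMM-scaled CPM of 10 members in each library, SPC at left and control at right, with lines joining libraries of the same number and black bars for the group means (n = 3). Slc2a6 is higher in SPC in each pair, Slc2a3, Pfkp, Pdk1 and Hif1a are lower in each pair, and number 3 (triangles) is the highest library of its group for every gene shown except Slc2a6.

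Lower glycolysis, from aldolase to pyruvate kinase, held 10 members, all tested and all with a log2 fold change below 0, none called in either fit. Without control library 3, on group alone, the values of Aldoc, Tpi1, Gapdh, Pgk1, Eno1, Eno2 and Pkm turned above 0. With the block and 1 number left out at a time, Eno2 ranged from -0.07 to 0.03. The others of these stayed below 0, from -0.37 to -0.22 for Aldoc and from -0.11 to -0.01 for Gapdh. Aldoa, the main aldolase gene, had 1821, 1781 and 2244 CPM with SPC, against 1913, 2036 and 2468 CPM in control. Tpi1, encoding triose phosphate isomerase, had 1131, 1113 and 1368 CPM with SPC, against 1145, 1261 and 1421 CPM in control. Both were lower in each pair with overlapping groups, and the blocked log2 fold changes were -0.13 ± 0.05 and -0.08 ± 0.05 (adjusted p = 0.116 and 0.363).

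Gapdh, whose enzyme yields the first NADH of the pathway, had 2796, 2476 and 2977 CPM in SPC libraries, against 2672, 2684 and 3203 CPM in control libraries. Pgk1, encoding phosphoglycerate kinase, had 1869, 1968 and 2491 CPM with SPC, against 1890, 2099 and 2595 CPM in control. For Pgk1 the pairs differed little while number 3 stood apart in both groups, and the blocked 95% intervals were -0.16 to 0.06 for Gapdh and -0.15 to 0.04 for Pgk1. Eno1, the main enolase gene, had 2704, 2511 and 3016 CPM with SPC, against 2640, 2730 and 3247 CPM in control. Pkm, encoding pyruvate kinase, had 3462, 3213 and 3791 CPM with SPC, against 3290, 3662 and 4298 CPM in control. For Gapdh, Eno1 and Pkm alike SPC was the higher in the pair numbered 1 and the lower in the other two, and the blocked intervals were -0.17 to 0.04 for Eno1 and -0.22 to 0.03 for Pkm.

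Pgam1, which encodes phosphoglycerate mutase, had 820.4, 841.9 and 872.3 CPM with SPC, against 898.2, 969.9 and 948.9 CPM in control, with no overlap (log2 fold change -0.15 ± 0.06, adjusted p = 0.466, or -0.15 ± 0.05 and 0.0775 in the blocked fit). Eno3, the muscle-type enolase gene, averaged 38.3 ± 2.89 CPM with SPC and 45.0 ± 1.19 CPM in control, also without overlap (blocked log2 fold change -0.24 ± 0.07, adjusted p = 0.0914). Aldoc, the brain-type aldolase gene, ranged over 14.25 to 36.46 CPM with SPC and 18.95 to 46.37 CPM in control, and Eno2, the neuronal enolase gene, averaged 2.61 ± 0.64 and 2.66 ± 0.819 CPM. Several members, here and at other steps, have near-identical copies. Of the 50-base windows of the longest transcript, 72.2% for Eno1, 68% for Pgk1, 41.5% for Pgam1, 34.4% for Pkm, 27.2% for Gapdh, 27% for Ldhb, 26.1% for Pfkfb2 and 16.6% for Ldha recur in some other gene's transcripts, so their counts may be split and are uncertain. Those for Aldoa, Gpi1 and Tpi1 were 13.5%, 10.2% and 7.51%. The figures for Slc2a6, Pfkp and Pdk1 were 0, for Slc2a3 1.45% and for Hif1a 2.18%. For Gapdh, Pfkfb2, Gpi1, Slc2a3, Slc2a6 and Pfkp the longest transcript is not of the protein-coding type. It has 3289 bases for Gapdh, against 1420 in the longest protein-coding one, and figures for the protein-coding ones were not taken.

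At the lactate step, Ldha, whose subunit favours lactate formation, had 2703, 2592 and 2874 CPM in SPC libraries, against 2735, 2942 and 3177 CPM in control libraries. SPC was the lower in each pair (blocked log2 fold change -0.11 ± 0.05, adjusted p = 0.197). Ldhb, whose subunit favours the return to pyruvate, had 25, 24.89 and 23.95 CPM with SPC, against 22.54, 21.00 and 24.46 CPM in control (0.12 ± 0.08, adjusted p = 0.413). Neither was called, and as a share of the pair per transcript length Ldhb held 1.25% ± 0.089 with SPC and 1.06% ± 0.0753 in control. That share did not overlap between the groups (exact permutation p = 0.1, the smallest that 3 against 3 allows, adjusted 0.625), the one such case, with its complement Ldha, among the 25 shares. Of the proton-linked lactate carriers, Slc16a1 (MCT1) had 269.8, 281.0 and 265.5 CPM with SPC, against 272.9, 279.4 and 255.4 CPM in control, with a blocked 95% interval of -0.09 to 0.12. Slc16a3 (MCT4), the carrier known for lactate export, had 210.2, 248.7 and 326.5 CPM with SPC, against 245.1, 292.2 and 324.0 CPM in control, lower in the pairs numbered 1 and 2 and level in 3 (blocked log2 fold change -0.15 ± 0.06, adjusted p = 0.178).

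**Figure D3:**
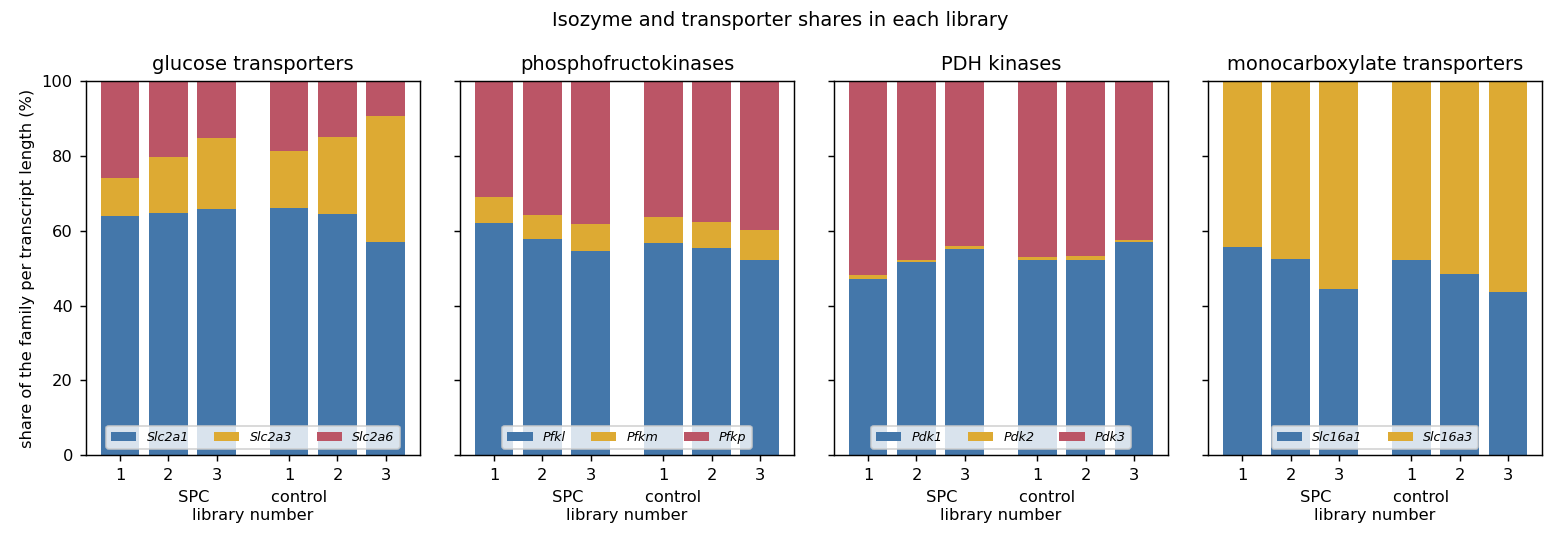
Share of each transporter or isozyme in its family, from counts per base of the longest annotated transcript (y axis, percent), in each SPC library (left bars of a panel) and control library (right bars). Slc2a3 takes 10.2% to 19.1% of the transporters in SPC libraries and 15.4% to 33.8% in control libraries, and within each group the shares shift from number to number.

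Pdk1, which encodes the kinase that shuts off pyruvate dehydrogenase and a well-known HIF-1 target, had 120.9, 144.7 and 172.8 CPM in SPC libraries, against 151.5, 170.7 and 207.3 CPM in control libraries. It was lower with SPC in each pair, at -0.33, -0.24 and -0.26 on the log2 scale, although the groups overlapped. With the block it fell by 0.28 ± 0.05 on the log2 scale (adjusted p = 0.00825; 0.609 on group alone), and without the libraries numbered 3 the blocked adjusted p was 0.0588. Pdk3, another gene of the kinase family, averaged 55.1 ± 1.19 CPM with SPC and 60.4 ± 4.06 CPM in control (blocked log2 fold change -0.13 ± 0.06, adjusted p = 0.27). Pdk2 averaged 1.05 ± 0.25 and 1.02 ± 0.289 CPM.

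Hif1a had the lowest blocked p of the members that fell. It had 168.4, 227.9 and 274.4 CPM in SPC libraries, against 251.8, 294.1 and 388.3 CPM in control libraries, lower in each pair, at -0.58, -0.37 and -0.50 on the log2 scale. The groups overlapped because the number 3 SPC library stood above the number 1 control library. With the block it fell by 0.48 ± 0.05 on the log2 scale (adjusted p = 0.00056), to 0.716 of control, and on group alone the value was -0.48 ± 0.20 (adjusted p = 0.438). The blocked value stayed between -0.53 and -0.43 when 1 number was left out, with an adjusted p of at most 0.000788. Blocked fits with 1 number left out, here and elsewhere, have few residual degrees of freedom. Without number 1 that fit called 2112 genes, against 866 with all libraries. Txnip had 22.42, 23.78 and 30.68 CPM with SPC, against 18.88, 19.04 and 32.73 CPM in control, higher in the pairs numbered 1 and 2 and lower in 3 (blocked log2 fold change 0.15 ± 0.09, adjusted p = 0.361).

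The promoters of 3 of the genes called with the block are shown to let 1 form of the pathway's HIF motif core be read in place. That of Pgk1, 1 of 18 members that differed between library numbers and not called with the block, was added by choice. Each run gives the 250 bases before the transcript start (RefSeq, GRCm38.p6), 5′ to 3′ on the gene's strand, with no base in an annotated exon. Capitals mark ACGTG, a form of the HIF response element's core, on either strand (CACGT on the opposite one). Where the 2 overlap as CACGTG they were counted once.
Hif1a (chr12:73907617-73907866, plus strand): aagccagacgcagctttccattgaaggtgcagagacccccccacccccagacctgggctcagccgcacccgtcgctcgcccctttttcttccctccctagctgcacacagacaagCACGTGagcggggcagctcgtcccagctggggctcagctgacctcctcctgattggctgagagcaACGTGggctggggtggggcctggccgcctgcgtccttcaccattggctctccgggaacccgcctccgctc
Pdk1 (chr2:71872974-71873223, plus strand): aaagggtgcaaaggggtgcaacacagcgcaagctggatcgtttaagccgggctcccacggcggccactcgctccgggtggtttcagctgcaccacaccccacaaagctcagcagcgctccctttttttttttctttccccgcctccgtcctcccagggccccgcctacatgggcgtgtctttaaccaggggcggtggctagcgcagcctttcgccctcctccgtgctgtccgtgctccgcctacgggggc
Slc2a6 (chr2:27027999-27028248, minus strand): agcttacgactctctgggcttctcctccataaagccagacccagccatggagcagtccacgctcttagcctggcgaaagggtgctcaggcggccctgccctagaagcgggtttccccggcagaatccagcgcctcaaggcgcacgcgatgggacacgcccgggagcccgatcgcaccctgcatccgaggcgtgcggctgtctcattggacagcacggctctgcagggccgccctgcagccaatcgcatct
Pgk1 (chrX:106186850-106187099, plus strand): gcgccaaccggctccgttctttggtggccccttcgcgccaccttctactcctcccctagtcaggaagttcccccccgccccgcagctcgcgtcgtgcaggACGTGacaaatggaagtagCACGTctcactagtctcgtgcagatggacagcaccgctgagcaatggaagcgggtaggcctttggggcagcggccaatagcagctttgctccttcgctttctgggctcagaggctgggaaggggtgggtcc
The run of Hif1a held 2 matches, beginning 135 and 70 bases before the start, and that of Pgk1 held 2, beginning 150 and 131 bases before it. Those of Pdk1 and Slc2a6 held none of these letters. Both do hold GCGTG, another form of the core, which was neither searched for nor marked. Of the members, 32 matched the promoter table, and 20 of their 51 windows (39.2%) held the letters, beside 16.6% of all 32851 windows. Windows of 1 gene can overlap, as those of Aldoa do, so a site can count more than once. By gene, 16 of the 32 held the letters in at least 1 window, and the share by gene over all genes was not taken. Of the 4 members called with the block that matched the promoter table, 1, Hif1a, held the letters. A match in letters is no evidence of binding.

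With group in the model, 18 of the 32 tested members differed between numbers (edgeR quasi-likelihood test, adjusted p under 0.05), 56.2% of them beside 10.9% of all tested genes. For 17 of the 18, number 3 stood above number 1 (53.1% of members, beside 6.64% of all tested genes), and Slc2a6 was the one below (3.12%, beside 4.21%). The adjusted p-values in brackets below are from that joint test of all 3 numbers, not from a test of 3 against 1. The log2 difference between numbers 3 and 1 was 1.46 for Slc2a3 (adjusted p = 0.000143), 1.32 for Aldoc (0.000143), 0.66 for Hif1a (0.000823), 0.62 for Txnip (0.00894), 0.52 for Slc16a3 (0.00478), 0.51 for Pfkp (0.00121) and 0.48 for Pdk1 (0.00309). It was 0.44 for Pgk1 (0.00196), 0.35 for Slc2a1 (0.0118) and -0.45 for Slc2a6 (0.0117). The difference between numbers exceeded the SPC difference in size for 25 of the 32 members, beside 65.6% of all tested genes. The libraries numbered 3 were also the least deeply sequenced of each group, at 22715292 counts with SPC and 22002050 in control, and the part of depth in this was not tested. Without SPC library 3, and likewise without control library 3, 9 members were called by number.

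**Figure D4:**
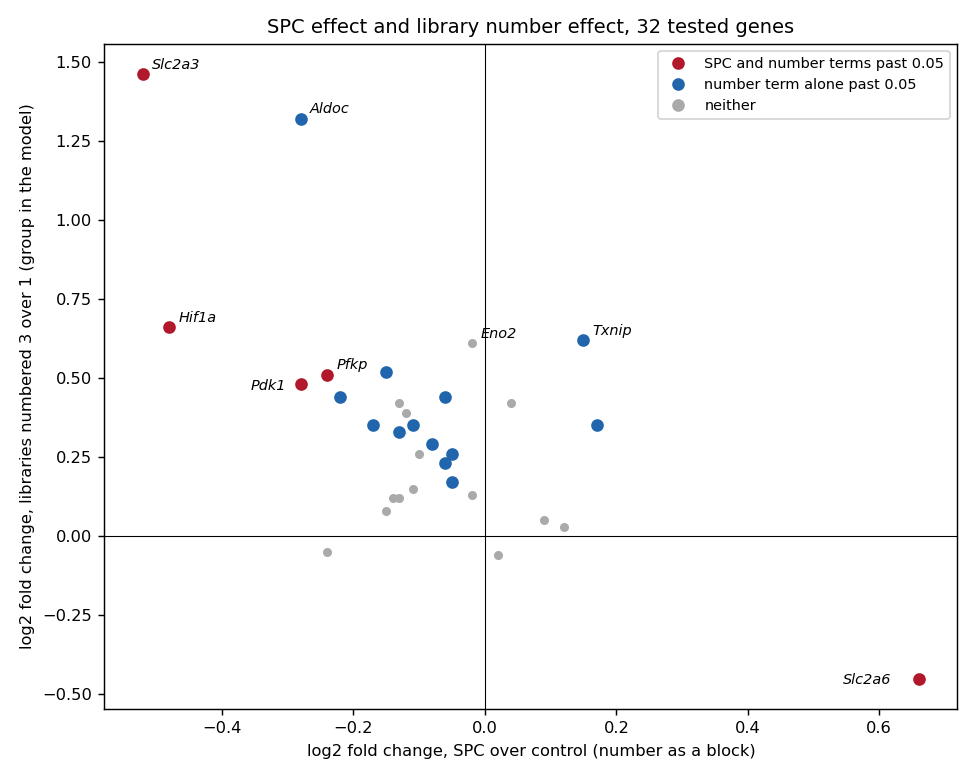
Each of the 32 tested members by its SPC effect (x axis, log2 fold change of SPC over control with library number as a block) and its number effect (y axis, log2 fold change of libraries numbered 3 over 1). Red points passed both terms, blue points the number term alone and grey points neither, and most members lie above 0 on the y axis and close to 0 on the x axis.

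Of 93 tested genes in the lists around the pathway, edgeR called 0 on group alone, beside 0.483% of all tested genes. At an unadjusted p under 0.05 there were 5, beside 10.2% of all tested genes. Limma-voom called 0 of the 93, beside 38 genes in all, and DESeq2 called 2, Prps1 and Epas1, beside 281 in all. Of 18 HIF targets outside glycolysis, 14 differed between numbers, each with number 3 above number 1, beside 6.64% of all tested genes. With the block 6 fell with SPC, beside 3.07% of all tested genes, and 2 rose, beside 4.02%. Those lower were Bnip3 and Bnip3l, which promote removal of mitochondria, the oxygen sensors Egln1 and Egln3, the collagen prolyl hydroxylase gene P4ha2 and the transcriptional repressor gene Bhlhe40. Bnip3 averaged 146.6 ± 44.8 CPM with SPC and 193.5 ± 53.6 CPM in control (blocked log2 fold change -0.41 ± 0.05, adjusted p = 0.000935), and the other 5 had blocked values between -0.44 and -0.19. The 2 higher were Ndrg1 (0.26 ± 0.06, adjusted p = 0.0313) and Adm, which encodes adrenomedullin (0.65 ± 0.15, adjusted p = 0.0302). Of these 8 blocked calls, only that of Bnip3 held without each number (adjusted p at most 0.00212). Without the libraries numbered 2 the adjusted p was 0.0913 for Adm, and without those numbered 3 it was 0.115 for P4ha2. Bnip3l, Egln1, Egln3, Ndrg1 and Bhlhe40 were lost both without number 2 and without number 3, with adjusted p up to 0.331. DESeq2 with the block called neither Egln1 (adjusted p = 0.0545), Egln3 (0.0585) nor Adm (0.1). On group alone 10 of the 18 targets had a log2 fold change below 0, beside 49.5% of all tested genes, and the median was -0.06. Apart from Adm, Bhlhe40 and Egln1, these genes were named because the blocked test called them.

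Among 7 HIF pathway regulators, Epas1, which encodes HIF-2α, averaged 7.77 ± 0.516 CPM with SPC and 11.9 ± 1.81 CPM in control, and fell with the block (-0.60 ± 0.12, adjusted p = 0.0146). On group alone its adjusted p was 0.108 in edgeR and 0.0153 in DESeq2, and with the block but without the libraries numbered 3 it was 0.0726. With the block Arnt, the partner subunit, had -0.19 ± 0.06 (adjusted p = 0.0862) and Hif1an, encoding an inhibitor of HIF, 0.17 ± 0.06 (0.132). Their adjusted p on group alone was 0.577 and 0.428. Of 26 other glycolysis and glucose transport genes, 12 were tested. With the block Adpgk, an ADP-dependent glucokinase gene, rose by 0.28 ± 0.06 on the log2 scale (adjusted p = 0.0122) and Pgm2, a phosphoglucomutase gene, fell by 0.24 ± 0.06 (0.0324). Both calls were lost without number 2 (adjusted p = 0.0845 for Adpgk and 0.188 for Pgm2) and without number 3 (0.0618 and 0.281). Slc2a9, a urate carrier gene of the glucose transporter family, had 0.38 ± 0.21 with the block (adjusted p = 0.341, and 0.695 on group alone).

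In the pentose phosphate list, 1 of 10 tested genes rose with the block, beside 4.02% of all tested genes, and none fell, beside 3.07%. It was Prps1, which makes phosphoribosyl pyrophosphate for nucleotides, at 340.6, 313.4 and 314.9 CPM with SPC, against 258.6, 247.6 and 230.7 CPM in control. The groups did not overlap, and with the block it rose by 0.40 ± 0.05 on the log2 scale (adjusted p = 0.00097, and at most 0.00688 without any 1 number). On group alone the value was 0.39 ± 0.07, with an adjusted p of 0.0598 in edgeR, 0.0393 in edgeR with no low-count filter and 0.000843 in DESeq2. Prps2, and G6pdx, which encodes the entry enzyme, had -0.16 ± 0.07 and -0.10 ± 0.05 with the block (0.178 and 0.339). Of 16 tested genes of the tricarboxylic acid cycle and 11 of pyruvate entry into mitochondria, none passed in either fit, with medians of -0.03 and 0.02 on group alone. The smallest p of each belonged to Cs, encoding citrate synthase (-0.11 ± 0.05 with the block, adjusted p = 0.229), and Pcx, encoding pyruvate carboxylase (-0.16 ± 0.08, 0.3). Of 13 tested growth regulators upstream of glycolysis, among them Myc and Mtor, none passed in either fit (median 0.02 on group alone). Max, the partner of Myc, had 0.14 ± 0.06 with the block (adjusted p = 0.176, and 0.604 on group alone). Of 6 tested relatives and regulators of Txnip, Arrdc2 rose with the block (0.41 ± 0.09, adjusted p = 0.0154), a call lost without the libraries numbered 2 (0.0583) and in DESeq2 with the block (0.0662).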

How the data were processed

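RNA was sequenced from 3 SPC and 3 control cultures, from 1.3 µg of total RNA with a kit that marks strand, per the labels. The deposited values are raw read counts per gene symbol. TopHat and the mm10 build were used, per the submitters' processing notes. The sources used here do not give the counting program, its annotation or strand setting, so antisense overlap cannot be told apart from the gene's own reads.

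Differences between groups were fitted to these counts in edgeR 4.0.16 under R 4.3.3 (quasi-likelihood F test, robust, TMM scaling, filterByExpr with minimum count 10 and minimum total 15), with group as the single term and Benjamini-Hochberg adjustment over 12226 genes. Limma 3.58.1 (voom) and DESeq2 1.42.0 were alternatives. CPM are TMM-scaled, pair differences use log2 CPM with a prior count of 2, and the SE is the log2 fold change over the square root of F. Means are given ± SD (n = 3). Same-numbered libraries deviated together from their group means (correlations 0.413, 0.208 and 0.508 across genes, each above the limit of 0.1). Values with the number as a block are therefore given beside those on group alone, or in their place. No 2 libraries agreed within counting noise. The scripts were tested on simulated data. Transcript lengths, coordinates and exons are from GENCODE M21 (GRCm38, the mm10 assembly). By the naming rule, members called in either fit and the main enzymes are given in every library, and up to 3 genes with the smallest p in each neighbouring list. The members and lists were chosen with earlier results of these data known.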

Additional observations from a re-analysis of the deposited data

How the results depend on the processing

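Under the replicate block 866 genes and 5 members were called, against 59 and 0 without the block. On group alone DESeq2 called 281 genes and 1 member, limma-voom 38 genes, and the fit with no low-count filter 147 genes, the last 2 with 0 members. Leaving out 1 library or 1 number gave 0 to 66 genes and 0 members, with a members' median of -0.18 to 0.00. The genes numbered 6 without SPC library 2, 6 without control library 2, and 0 without number 2. In the blocked fit, leaving out 1 number gave 563 to 2112 genes and 3 to 21 members (21 without number 1), with few residual degrees of freedom. Of the 5 blocked calls, Hif1a and Slc2a6 held without each number. Slc2a3 was lost without 1, Pfkp without 2 and without 3, and Pdk1 without 3. In neighbouring lists 13 of the 93 tested genes were called with the block, beside 7.08% of all tested genes. Of these 13, Bnip3 and Prps1 held without each number. Other blocked settings, chosen after seeing the data, called 5 or 6 members. By number, 2059 genes were called with no low-count filter, and leaving out 1 library gave 544 to 5832 genes and 9 to 24 members. The causes were not tested.

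Log2 fold changes that turned sign when libraries were left out, none of them called in the same fit with all libraries, ranged on group alone from -0.21 to 0.03 for Hk1, -0.12 to 0.05 for Hk2, -0.11 to 0.04 for Pfkl, -0.24 to 0.10 for Pfkfb2, -0.23 to 0.01 for Pfkfb4, -0.72 to 0.22 for Aldoc, -0.19 to 0.01 for Tpi1 and -0.11 to 0.04 for Gapdh. They ranged from -0.19 to 0.09 for Pgk1, -0.14 to 0.04 for Eno1, -0.23 to 0.25 for Eno2, -0.18 to 0.01 for Pkm, -0.02 to 0.04 for Slc16a1, -0.32 to 0.00 for Slc16a3, -0.17 to 0.42 for Pdk2, -0.02 to 0.44 for Txnip, -0.28 to 0.04 for Pcx, -0.44 to 0.07 for Egln3 and -0.13 to 0.68 for Ndrg1. With the block they ranged from -0.11 to 0.03 for Pfkl (0.02 without number 3), -0.25 to 0.05 for Pfkfb2, -0.07 to 0.03 for Eno2, -0.00 to 0.03 for Slc16a1 and -0.19 to 0.43 for Pdk2 (-0.09 without number 3). Among the isozyme shares, only the Slc2a1 difference moved beyond the replicate SD when raw counts replaced counts per transcript length. Depth limits Pdk2, at about 1 CPM, and Hk3 was not testable.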
